A study of Mus musculus with 4 samples.

Results

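The imprinted growth regulators described here were 8 mouse genes, H19, Plagl1, Grb10, Dlk1, Ndn, Cdkn1c, Mest and Peg3. They were measured by 11 probe sets of the 45101 on the array, a probe set being a group of short oligonucleotides that report 1 transcript together. The members were chosen by probe set number from a list that pairs each number with its gene, since the deposited table carries no gene names. Plagl1, Grb10 and Peg3 had 2 probe sets each, and these measure the same gene and are not replicates. Expression was profiled on 4 arrays of cultured mouse fibroblasts of the C57BL/6 strain, 2 of wild type and 2 of SIN1-ablated cells, called SIN1 KO. SIN1, encoded by Mapkap1, is a subunit of mTOR complex 2, the kinase complex that phosphorylates AKT. All cells were grown in DMEM, and the labels name no treatment besides the ablation. The labels call the cells both murine epithelial fibroblasts and MEFs, and leave unstated whether same-genotype arrays represent different cultures, lines or embryos. The spread between arrays may therefore be technical. Markers of fibroblasts or of other cell types, Mapkap1 itself and other imprinted genes such as Igf2 and Meg3 were not analysed here, because no source used here pairs their probe sets with genes.

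An imprinted gene is expressed mainly from the copy inherited from one parent, under the control of DNA methylation laid down in the germ line. Many such genes act on fetal growth. Paternally expressed ones often promote growth and maternally expressed ones often restrain it, and many are abundant in the embryo and are switched down after birth. H19 is a maternally expressed long noncoding RNA whose locus also controls the neighbouring growth factor gene Igf2. Plagl1 (also called Zac1) encodes a zinc finger transcription factor that can arrest the cell cycle and regulates other imprinted genes. Grb10 encodes an adaptor that binds the insulin and IGF1 receptors and dampens their signal, and its protein is phosphorylated by mTOR complex 1. Dlk1 encodes a transmembrane protein of the Notch ligand type that holds back fat cell formation. Ndn encodes necdin, a growth suppressor of the MAGE family. Cdkn1c encodes p57, an inhibitor of cyclin-dependent kinases. Mest encodes a protein of the hydrolase fold family, and Peg3 a large zinc finger protein.

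H19 is also the precursor of the microRNA miR-675, whose mature forms are shown because H19 had the largest difference among these genes. The array measured the H19 transcript and not the microRNA. The sequences are from RefSeq (GRCm38.p6), lie on the minus strand within the annotated span of H19, and have the seed, bases 2 to 8, in capitals.
mmu-miR-675-5p (chr7:142577112-142577133): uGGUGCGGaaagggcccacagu
mmu-miR-675-3p (chr7:142577078-142577099): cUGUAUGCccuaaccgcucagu
The seeds of these forms differ.

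Sequence before the transcription start is shown for 3 of the genes that stood apart on SIN1 KO arrays. Imprinted control often acts through methylation of the dinucleotide CG, the motif searched, which reads the same on both strands. RefSeq's promoter table (GRCm38.p6) held a window for 6 of the 8 genes, all but H19 and Cdkn1c. The windows of Plagl1, high on both SIN1 KO arrays, and of Grb10 and Ndn, above background on 1 SIN1 KO array, are given 5′ to 3′ with each CG in capitals, ending before the first base of the annotated gene.
Plagl1 (chr10:13090582-13090831, plus strand): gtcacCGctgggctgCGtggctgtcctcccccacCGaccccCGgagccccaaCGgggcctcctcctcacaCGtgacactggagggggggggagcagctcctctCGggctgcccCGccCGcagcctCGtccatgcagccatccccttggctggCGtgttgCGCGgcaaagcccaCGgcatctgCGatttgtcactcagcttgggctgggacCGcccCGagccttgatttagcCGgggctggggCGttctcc
Grb10 (chr11:12037429-12037670, minus strand): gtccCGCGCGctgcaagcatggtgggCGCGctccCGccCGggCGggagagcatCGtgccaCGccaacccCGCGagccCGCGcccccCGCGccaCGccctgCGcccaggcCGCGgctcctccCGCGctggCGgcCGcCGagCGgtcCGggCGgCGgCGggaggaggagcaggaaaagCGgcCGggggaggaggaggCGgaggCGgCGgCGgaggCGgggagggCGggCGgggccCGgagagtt
Ndn (chr7:62348027-62348276, plus strand): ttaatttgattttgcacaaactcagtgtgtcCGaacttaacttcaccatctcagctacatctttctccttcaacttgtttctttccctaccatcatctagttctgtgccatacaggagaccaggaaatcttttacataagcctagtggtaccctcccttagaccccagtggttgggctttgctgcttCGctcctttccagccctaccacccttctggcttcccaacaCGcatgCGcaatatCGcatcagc
The 3 windows differed widely in CG content. In the 250 bases before its start, Grb10 had 40 CG, a number reached by 1.31% of the 32851 windows of all genes. Plagl1 had 19, reached by 19.7% of windows, and Ndn had 5, reached by 55.6%. The median window had 6, and 92.1% of windows had at least 1. The second listed start of Grb10 had 8 CG, as did the starts of Dlk1 and Peg3. Mest had 7 before its first start and 14 before its other starts. Methylation was not measured in these samples.

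The arrays did not group by genotype over all probe sets, which bears on every value below. Wild type 1 lay closest to SIN1 KO 1 (Pearson r = 0.971 over probe sets, whose values are not independent), and wild type 2 lay farthest from SIN1 KO 2 (r = 0.904), with 8.01% and 29.4% of probe sets at least 1 log2 unit apart. Within a genotype that share was 16.5% for wild type and 14.1% for SIN1 KO. Background was set per array as the highest of 27 control probe sets for Bacillus subtilis transcripts and lay between 3.75 and 4.27 on the log2 scale. All levels below are the deposited log2 values, so 1 unit is a 2-fold difference. Differences are SIN1 KO minus wild type.

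The question was which of these genes differ in level between SIN1 KO and wild type cells. H19 and Plagl1 were high on both SIN1 KO arrays, with every SIN1 KO value at least 2.42 log2 units above every wild type value of the same probe set. Grb10, Dlk1 and Ndn were above background on SIN1 KO 2 alone. Mest and Peg3 were expressed on every array with overlapping genotypes, and Cdkn1c was at background throughout. After adjustment over all 45037 tested probe sets, limma called none of the 11 (lowest adjusted p 0.699, for H19), and the share called in the whole table was 0% in each direction. At an unadjusted threshold of 0.05, limma called 3 of the 11, H19 and both Plagl1 probe sets, each higher in SIN1 KO, against 3% of all probe sets higher and 2.57% lower. An exact permutation test of 2 against 2 arrays cannot give a two-sided p under 0.333.

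**Figure D1:**
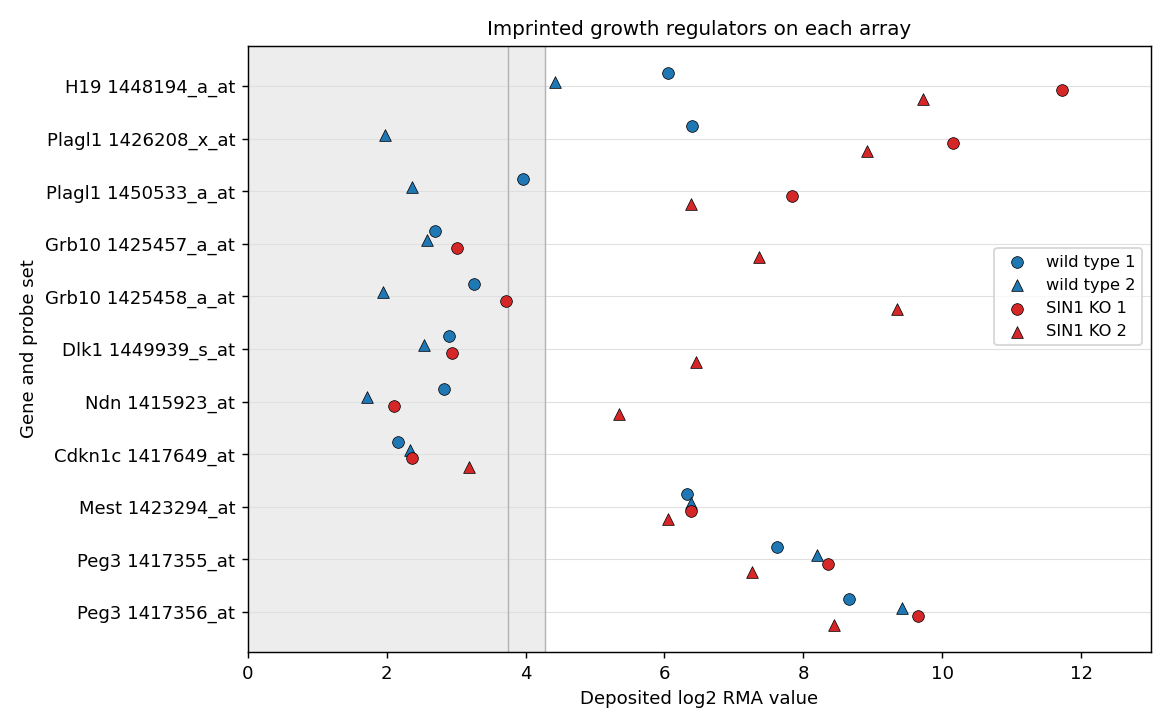
Deposited log2 RMA values (horizontal axis) of the 11 probe sets (rows) on each of the 4 arrays; blue is wild type, red is SIN1 KO, circles are the arrays numbered 1 and triangles those numbered 2, with no averaging. The grey area ends at the highest array background, 4.27, and the vertical lines mark the lowest (3.75) and highest background. H19 and Plagl1 have both red points to the right of both blue points, and Grb10, Dlk1 and Ndn have a single red triangle outside the grey area.

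H19 (1448194_A_AT), the noncoding RNA, measured 6.05 and 4.42 on wild type arrays, against 11.72 and 9.72 on SIN1 KO arrays. Both SIN1 KO arrays were high, both wild type arrays were low but above their background, and the genotypes did not overlap. The mean levels were 5.24 ± 1.15 for wild type and 10.72 ± 1.41 for SIN1 KO (SD, n = 2). The difference was 5.49 (SE 0.90, 95% interval 3.06 to 7.91), which is 44.8-fold, the 15th largest of 45037 differences in favour of SIN1 KO. The limma p was 0.00276 unadjusted and 0.699 adjusted over all probe sets. The smallest of the 4 differences between a SIN1 KO and a wild type array was 3.67 and the largest 7.30, both larger than the 2.00 between the SIN1 KO arrays and the 1.63 between the wild type arrays. In bulk RNA, a change in the share of cells that express a transcript and a change in its amount per cell cannot be told apart.

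Plagl1, the zinc finger factor, had the same direction at both of its probe sets. Probe set 1450533_A_AT measured 3.96 and 2.36 on wild type arrays, against 7.84 and 6.38 on SIN1 KO arrays. Both wild type values were at or below background, though wild type 1 only by 0.087, and both SIN1 KO values were above it, by 4.09 and 2.11. The group levels were 3.16 ± 1.13 and 7.11 ± 1.03 (SD, n = 2), a difference of 3.95 (SE 0.77, limma p 0.00534, adjusted p 0.795). Against the background level, SIN1 KO was at least 8.78-fold higher. Leaving out SIN1 KO 1 gave at least 5.29-fold, and leaving out SIN1 KO 2 at least 14.6-fold. The background level rests on 1 control probe set, and with the 95th percentile of the controls in its place wild type 1 counted as above background, so that no bound could be given.

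Probe set 1426208_X_AT of Plagl1 measured 6.39 and 1.98 on wild type arrays, against 10.16 and 8.92 on SIN1 KO arrays. The wild type arrays disagreed here: wild type 1 was 2.35 above its background and wild type 2 was 1.93 below it, while both SIN1 KO arrays were high and did not overlap with wild type. The group levels were 4.19 ± 3.12 and 9.54 ± 0.88 (SD, n = 2). The difference was 5.35 (SE 1.57, limma p 0.0233, adjusted p 0.82), the 16th largest, and it was 3.15 without wild type 2 and 7.56 without wild type 1. With the value of wild type 2 raised to its background, the difference was 4.39. The suffix x marks a probe set whose probes may bind transcripts of other genes, so its level is uncertain on every array. Whether they did so here was not tested. Wild type 1 was above background at this probe set and 0.087 below it at the other. SIN1 KO 1 exceeded wild type 1 by 3.77 at this probe set and by 3.88 at the other.

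H19 and both Plagl1 probe sets also shared their order over the arrays: SIN1 KO 1, SIN1 KO 2, wild type 1, wild type 2, from high to low. This order was found in 4.36% of all tested probe sets. Part of it is given by the lack of overlap, higher in SIN1 KO, which 20.4% of all probe sets showed. The Plagl1 probe sets measure the same gene, so their like order is not independent. Within SIN1 KO, each of these 3 probe sets was higher in SIN1 KO 1 than in SIN1 KO 2, by 2.00 for H19 and by 1.24 and 1.46 for Plagl1. Non-overlapping genotypes with a gap of at least 2 log2 units, higher in SIN1 KO, were seen in these 3 of the 11 members and in 0.231% of all probe sets (104 of 45037). The reverse, lower in SIN1 KO by such a gap, was seen in 0 members and in 0.104% of all probe sets. The gap of 2 was chosen after the values were seen.

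**Figure D2:**
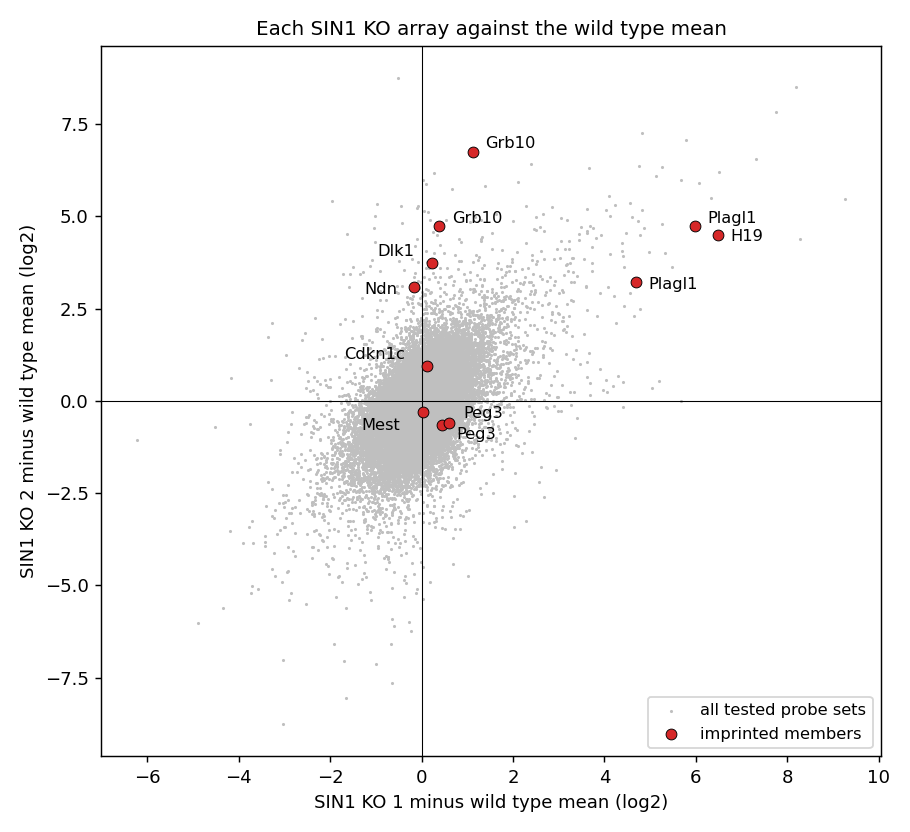
Value of each probe set on SIN1 KO 1 (horizontal axis) and SIN1 KO 2 (vertical axis) minus the mean of the 2 wild type arrays, in log2 units; grey points are all 45037 tested probe sets and red points are the 11 members, named by gene. Both axes subtract the same wild type mean, so the grey cloud leans along the diagonal by construction. H19 and Plagl1 lie high on both axes, and Grb10, Dlk1 and Ndn lie high on the vertical axis, with horizontal values between -0.16 and 1.12.

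Grb10, the adaptor that dampens insulin and IGF1 receptor signalling, was high on 1 array. Probe set 1425458_A_AT measured 3.26 and 1.95 in wild type, 3.72 in SIN1 KO 1 and 9.35 in SIN1 KO 2. Probe set 1425457_A_AT measured 2.69 and 2.57 in wild type, 3.02 in SIN1 KO 1 and 7.36 in SIN1 KO 2. At both, SIN1 KO 2 was above its background, by 5.08 and 3.09, and the other 3 arrays were at or below theirs, 1425458_A_AT on SIN1 KO 1 by only 0.029. SIN1 KO 1 lay above both wild type arrays by 0.46 and 0.32, but values under background have no reliable order. The differences were 3.93 (SE 1.97, adjusted p 0.82) and 2.55 (SE 1.49, adjusted p 0.82) in limma's test, smaller than the 5.63 and 4.35 between the SIN1 KO arrays. They were taken against wild type values under background, and with only these set to their background they were 2.56 and 1.21. With the SIN1 KO 1 value also set to its background they were 2.57 and 1.58. Without SIN1 KO 1 the deposited values differed by 6.74 and 4.73. Without SIN1 KO 2 the differences, 1.12 and 0.38, compare only values under background.

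Dlk1 (1449939_S_AT), the Notch ligand type protein, measured 2.90 and 2.54 in wild type, 2.94 in SIN1 KO 1 and 6.46 in SIN1 KO 2. As for Grb10, SIN1 KO 2 was above its background, by 2.19, and the other 3 arrays were below theirs. The difference of 1.98 (SE 1.22, limma adjusted p 0.82) was 1.13 with each value under background set to it. It became 3.74 when SIN1 KO 1 was left out. When SIN1 KO 2 was left out it became 0.22, between values that are all under background. The suffix s marks probes shared by several transcripts, which may belong to more than 1 gene.

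Ndn (1415923_AT), which encodes necdin, measured 2.82 and 1.71 in wild type, 2.11 in SIN1 KO 1 and 5.35 in SIN1 KO 2. SIN1 KO 2 was 1.07 above its background, and the other 3 arrays were at least 1.23 below theirs, with SIN1 KO 1 between the wild type values. The difference of 1.46 (SE 1.18, limma adjusted p 0.826) was 0.57 with each value under background set to it. It became 3.08 when SIN1 KO 1 was left out. When SIN1 KO 2 was left out it became -0.16, a sign that rests on values under background alone.

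At least 1 log2 unit above background on SIN1 KO 2 and at or below background on the other 3 arrays were thus 4 of the 11 members, from 3 genes on different chromosomes in RefSeq. In the whole table this pattern was found in 66 of 45037 probe sets, 0.147%. The mirror patterns, with wild type 1, wild type 2 or SIN1 KO 1 as the only array above background by that margin, were found in 0.0955%, 0.391% and 0.129% of all probe sets and in 0 members. With a margin of 2 log2 units the count was 3 members (0.0666% of all probe sets), without Ndn. With the 95th percentile of the controls as background it was also 3, without 1425458_A_AT of Grb10, whose SIN1 KO 1 value then counted as above background. The pattern was defined after the values were seen. Of the 4 arrays, SIN1 KO 2 had 10 of the 11 members above background, SIN1 KO 1 had 6, wild type 1 had 5 and wild type 2 had 4. The excess of SIN1 KO 2 over SIN1 KO 1 is the same 4 members and is no separate result. SIN1 KO 2 had the highest background and the largest share of all probe sets at or below it (49.5%, against 43.5% to 46.8% on the other arrays). SIN1 KO 1 and SIN1 KO 2 differed by at least 3 log2 units, SIN1 KO 2 being higher, at these 4 members and at 0.255% of all probe sets. The cut of 3 was not planned beforehand either. This count largely restates the pattern for the same 4 members and is no separate result. The labels give no difference between the SIN1 KO arrays other than their number, and the part of the culture, the line or the RNA preparation in it was not tested.

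Cdkn1c (1417649_AT), the gene of the cell cycle inhibitor p57, measured 2.16 and 2.33 on wild type arrays, against 2.36 and 3.18 on SIN1 KO arrays. All 4 values lay at least 1.09 below the background of their array. It was the only member at or below background on all 4 arrays, where 38.2% of all probe sets also lay. The arrays of the genotypes did not overlap, by a gap of 0.027, but values under background have no reliable order, and no fold is given. Expression of Cdkn1c was not detectable at this probe set.

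Mest (1423294_AT), the hydrolase fold protein, was the most even of the genes. It measured 6.32 and 6.38 on wild type arrays, against 6.38 and 6.05 on SIN1 KO arrays, above background on every array. The genotypes overlapped, and the range over all arrays was 0.33. The difference was -0.14 (SE 0.27, 95% interval -0.85 to 0.58, limma adjusted p 0.92), an interval that does not reach a 2-fold difference in either direction. It was 0.0235 without SIN1 KO 2. H19, Mest and Peg3 supplied the 4 members that were above background on all 4 arrays, as were 46% of all probe sets.

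Peg3, the large zinc finger protein, gave the same picture at both probe sets. Probe set 1417355_AT measured 7.63 and 8.20 on wild type arrays, against 8.35 and 7.27 on SIN1 KO arrays. Probe set 1417356_AT measured 8.66 and 9.42 on wild type arrays, against 9.64 and 8.44 on SIN1 KO arrays. At both, SIN1 KO 1 was the highest and SIN1 KO 2 the lowest array, with the wild type arrays between them, an order found in 2.69% of all probe sets. The differences were -0.10 (SE 0.48, 95% interval -1.39 to 1.18, limma adjusted p 0.972) and 0.001 (SE 0.54, 95% interval -1.45 to 1.45, limma adjusted p 1). These intervals leave room for a 2-fold difference in both directions. Between the SIN1 KO arrays the probe sets differed by 1.09 and 1.21 with SIN1 KO 2 the lower, opposite to Grb10, Dlk1 and Ndn.

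**Figure D3:**
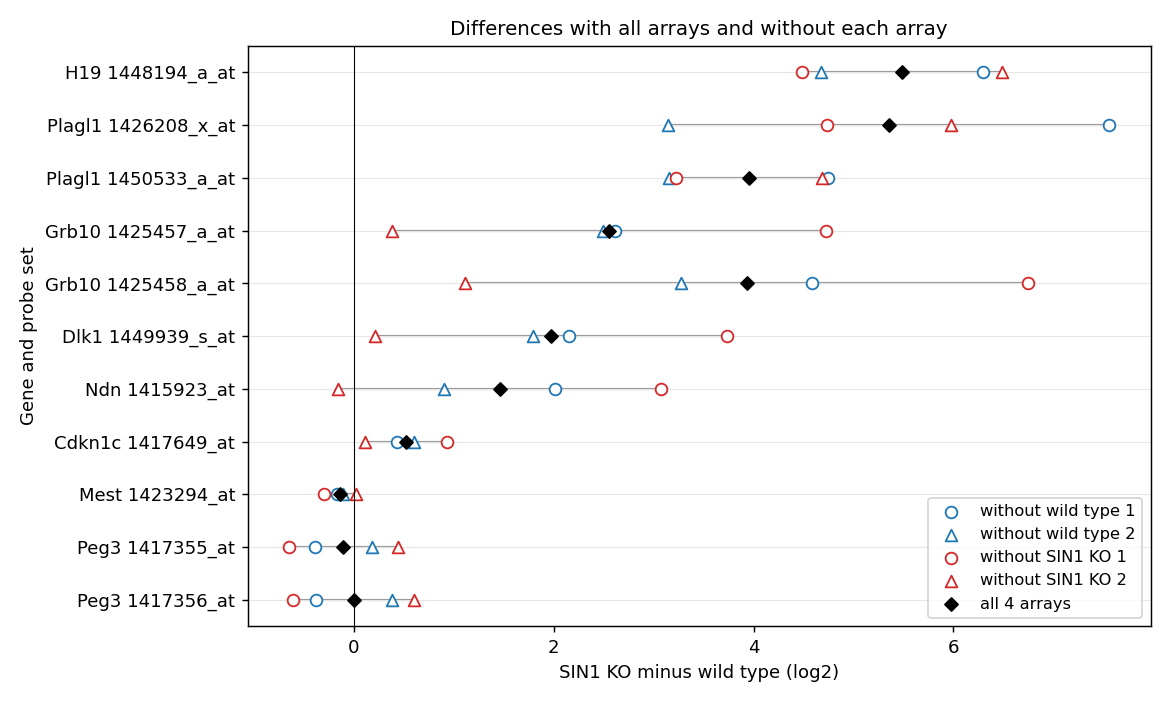
Difference SIN1 KO minus wild type in log2 units (horizontal axis) for each probe set (rows); black diamonds use all 4 arrays, open symbols leave out the array named in the legend, and the grey line spans them. H19 stays between 4.49 and 6.48 and 1450533_A_AT of Plagl1 between 3.15 and 4.75, while Grb10, Dlk1 and Ndn come to between -0.16 and 1.12 without SIN1 KO 2.

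Over the 11 members, the median difference was 1.98, against 0.037 over all tested probe sets, and 9 of 11 differences were positive, against 53.9% of all. The median rests on SIN1 KO 2: without that array it was 0.44, against -0.011 over all probe sets. With every value under its array's background set to that background it was 1.13, against 0.032. In that setting 9 members were again positive, but so were 69.2% of all probe sets. A probe set at or below background on all 4 arrays, as 38.2% were, then takes a difference of 0.032 from the array backgrounds alone. The median of 0.032 over all probe sets, much of the 69.2% and the sign of Cdkn1c in that setting therefore reflect the backgrounds and not expression. In both settings the 9 positive members include Cdkn1c, under background on all 4 arrays, and 1417356_AT of Peg3, whose difference was 0.001. The mean difference was at least 2 log2 units in favour of SIN1 KO for 5 members, from H19, Plagl1 and Grb10, against 0.802% of all probe sets, and in favour of wild type for 0 members, against 0.682%. Without SIN1 KO 2 the 5 became 3, H19 and both Plagl1 probe sets (0.713% of all probe sets). They became 7 without SIN1 KO 1 (1.48%) or without wild type 1 (1.51%), and stayed 5 without wild type 2 (0.571%). With values under background set to it they became 4, without 1425457_A_AT of Grb10 (0.584%). The cut of 2 was not planned beforehand, and Dlk1 (1.98) lay just under it. With overlap of the arrays as the measure, 7 members were higher in SIN1 KO without overlap, 0 were lower, and 4 overlapped. Of all tested probe sets, 20.4% were higher and 14.9% lower in this sense. Of the 7, 4 rest on gaps of 0.027 to 0.46 between values under background (Cdkn1c, Dlk1 and both Grb10 probe sets), and the other 3 are H19 and Plagl1. The members also varied more within a genotype than the median probe set. The median absolute difference between the SIN1 KO arrays was 1.46 for members and 0.40 for all probe sets, and between the wild type arrays 0.76 and 0.38.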

How the data were processed

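The deposited table holds log2 values for 45101 probe sets on 4 arrays, which the authors made with RMA (background correction, normalization between arrays and a summary per probe set), per the submitters' processing notes. The RMA version and settings are unstated in those notes, and the log2 scale was taken from the range, 0.80 to 14.17. Groups and replicate numbers came from the sample titles. All 64 named control probe sets were left out of the tests. The other 45037 were fitted with limma 3.58.1 in R 4.3.3 (lmFit, eBayes), p-values adjusted by Benjamini-Hochberg and called under 0.05, on 2 residual and 2.38 prior degrees of freedom. Precision is limited by the number of arrays. The members, lists and tests were chosen with earlier results of these data known, and every member is named. The lists of other imprinted genes and of cell type markers could not be matched to probe sets and were not analysed here. Promoter windows and microRNAs came from RefSeq (GRCm38.p6). Same-numbered arrays deviated in opposite directions from their genotype means (r = -0.42 across probe sets), so the numbers were not taken to pair the samples. Alternatives tried were a median-level filter, 3 other scalings, trended and robust priors, the replicate number as a block, each array left out and another background level. Plots used matplotlib 3.10.9 (Python 3.11.15).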

Additional observations from a re-analysis of the deposited data

How the results depend on the processing

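The count of members past the adjusted threshold was 0 under the filter at the median level (which left 7 members), median centring, cyclic loess, scaling to the hybridisation controls, trended and robust priors, and without each array (0 to 0). It was also 0 with the replicate number as a block, and with wild type 1 paired with SIN1 KO 2 and wild type 2 with SIN1 KO 1 as a block, which was added after the data were seen; limma called 0 of all probe sets under both. The filter was the only one of these alternatives under which limma called any probe set, 5 of 22519, none of them a member. Over these alternatives the lowest adjusted p of any member was 0.204, under the filter. The filter, priors and blocks cannot move a difference in this balanced design. Of the 83 other alternative values of the 11 differences, 73 kept their sign and 10 changed it. Scaling to the hybridisation controls, which raises every difference by 0.32, turned Mest to 0.183 and 1417355_AT of Peg3 to 0.217. Cyclic loess turned 1417356_AT of Peg3 to -0.044, and the mean of the Peg3 probe sets was -0.0515. Leaving out 1 array gave -0.298 to 0.0235 for Mest, -0.647 to 0.44 for 1417355_AT, -0.603 to 0.605 for 1417356_AT and -0.157 to 3.08 for Ndn. Mest and both Peg3 probe sets were at their highest, and Ndn at its lowest, without SIN1 KO 2. The cause of these sign changes was not tested. Members without overlap numbered 7 to 9 higher and 0 to 3 lower (Mest and Peg3) when 1 array was left out, which loosens that rule by construction: of all probe sets, 29.9% to 43.7% were then higher and 28% to 33.2% lower. The bound of Plagl1 was 5.29 to 14.6 without 1 array and 8.81 under cyclic loess. The list of other imprinted genes was not run.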
